A study of Mus musculus with 21 samples.

Results

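Transcript levels of the TEAD transcription factors (Tead1, Tead2, Tead3 and Tead4), their coactivators YAP (Yap1) and TAZ (Wwtr1), the kinase gene Lats2 and the secreted matricellular targets Ctgf and Cyr61 were examined in tumour endothelial cells of mice with and without endothelial Shb. These 9 genes, of 45706 in the deposited table, were found by gene symbol. They were chosen by measured values of the same table, because the average of Tead3 was higher in the knockout than in the wild type in all 4 experiments. The knockout contrast of these genes is therefore given as a description without a test.

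CD31+ cells were sorted from E0771.lmb tumours, which grow from a mouse mammary carcinoma line, in adult wild-type mice (WT) and in Shb iECKO mice (KO). In the latter, floxed Shb is deleted by a tamoxifen-activated Cre under the endothelial Cdh5 promoter, and per the labels' protocols the tumours of both groups grew after tamoxifen and were collected 14 to 16 days after injection of tumour cells. The same protocol text names a line with floxed Shb and the blood-cell Vav1-cre, and a step in which CD45+ cells were isolated on magnetic beads before sorting, and no sample is labelled as that line. The labels tell KO from WT only, and the KO libraries are taken here as Shb iECKO, the line in the series title. Shb encodes an adaptor protein that couples tyrosine kinase receptors, among them the VEGF receptor Kdr, to signalling inside the cell. Total RNA was sequenced from 11 WT and 10 KO samples, with 3 WT and 2 KO libraries in experiment 1, 3 and 4 in experiment 2, 2 and 2 in experiment 3, and 3 and 2 in experiment 4. Per the labels there were 9 WT and 8 KO tumours, fewer than the libraries. Which libraries come from the same tumour is not stated, and p-values may in part reflect variation inside a tumour.

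In the Hippo pathway a cascade of kinases ends at Lats1 and Lats2, which phosphorylate YAP and TAZ and keep them out of the nucleus. Unphosphorylated YAP and TAZ enter the nucleus, bind TEAD factors, which hold the DNA contact, and raise transcription of genes such as Ctgf, Cyr61 and, as a feedback, Lats2. In endothelium YAP and TAZ are known for their part in vessel sprouting and in the response to VEGF and to flow. A transcript level does not measure the phosphorylation or location of YAP or TAZ.

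Values are TPM, in which reads are corrected for gene length and for the library total, so that levels can be compared between genes. TPM keeps no record of the reads behind a value, and the depth of the libraries is unknown. The number of genes above 0 TPM ran from 12178 to 20526 per library, with a median of 18024 in WT and 14374 in KO. The targeted gene Shb ranged from 17.25 to 74.29 TPM in WT (median 31.76) and from 6.00 to 52.68 TPM in KO (median 13.7), so the groups overlapped. The endothelial marker Pecam1 was above 0 in every library, from 95.04 to 1960 TPM. Among the columns 2 share the header of KO replicate 3 of experiment 2 and are called KO replicates 3a and 3b here, and no column is headed for KO replicate 3 of experiment 4. Both were kept in experiment 2, and results that rest on them are given without them as well. In whole-sample RNA, fewer cells of a type and less RNA per cell cannot be told apart.

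Tead3, whose protein binds the same DNA sequence as its paralogs, had the widest range of the 9 genes, from 2.26 to 843 TPM. In experiment 1 it stood at 3.60, 87.3 and 21.5 TPM in the WT libraries and at 13.3 and 107 TPM in the KO libraries. In experiment 2 it stood at 6.55, 17.45 and 2.26 TPM in WT and at 24.4, 109.5, 843 (3a) and 57.3 TPM (3b) in KO. Every KO library of experiment 2 lay above every WT library, whereas the groups overlapped in experiment 1. In experiment 3 the WT libraries held 21.3 and 5.76 TPM and the KO libraries 2.70 and 123.9 TPM, and in experiment 4 the WT libraries held 8.94, 2.97 and 5.51 TPM and the KO libraries 28.9 and 33.6 TPM. The groups of experiment 4 did not overlap, and in experiment 3 the lowest and the highest value were both KO.

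Over all experiments Tead3 had a median of 6.55 TPM in WT (range 2.26 to 87.3, n = 11) and 45.4 TPM in KO (range 2.70 to 843, n = 10). In 9 of 10 KO libraries it lay above the WT median, and in 4 it lay above every WT library. The difference was taken in log2(TPM + 1), where the added constant shrinks changes at low levels. Between KO and WT it was 2.20 (SE 0.73), a ratio of 4.59. By experiment it was 0.91, 3.82, 0.81 and 2.34 for experiments 1 to 4. Without KO replicates 3a and 3b it was 1.75. Leaving out experiment 2 gave 1.38 (SE 0.76), and leaving out any 1 library gave 1.83 to 2.65. Tead3 also varied within groups: its residual SD was 1.84 on the log2 scale, against a median of 0.72 over all 13503 genes tested, and 98.7% of those genes had a smaller one.

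**Figure D1:**
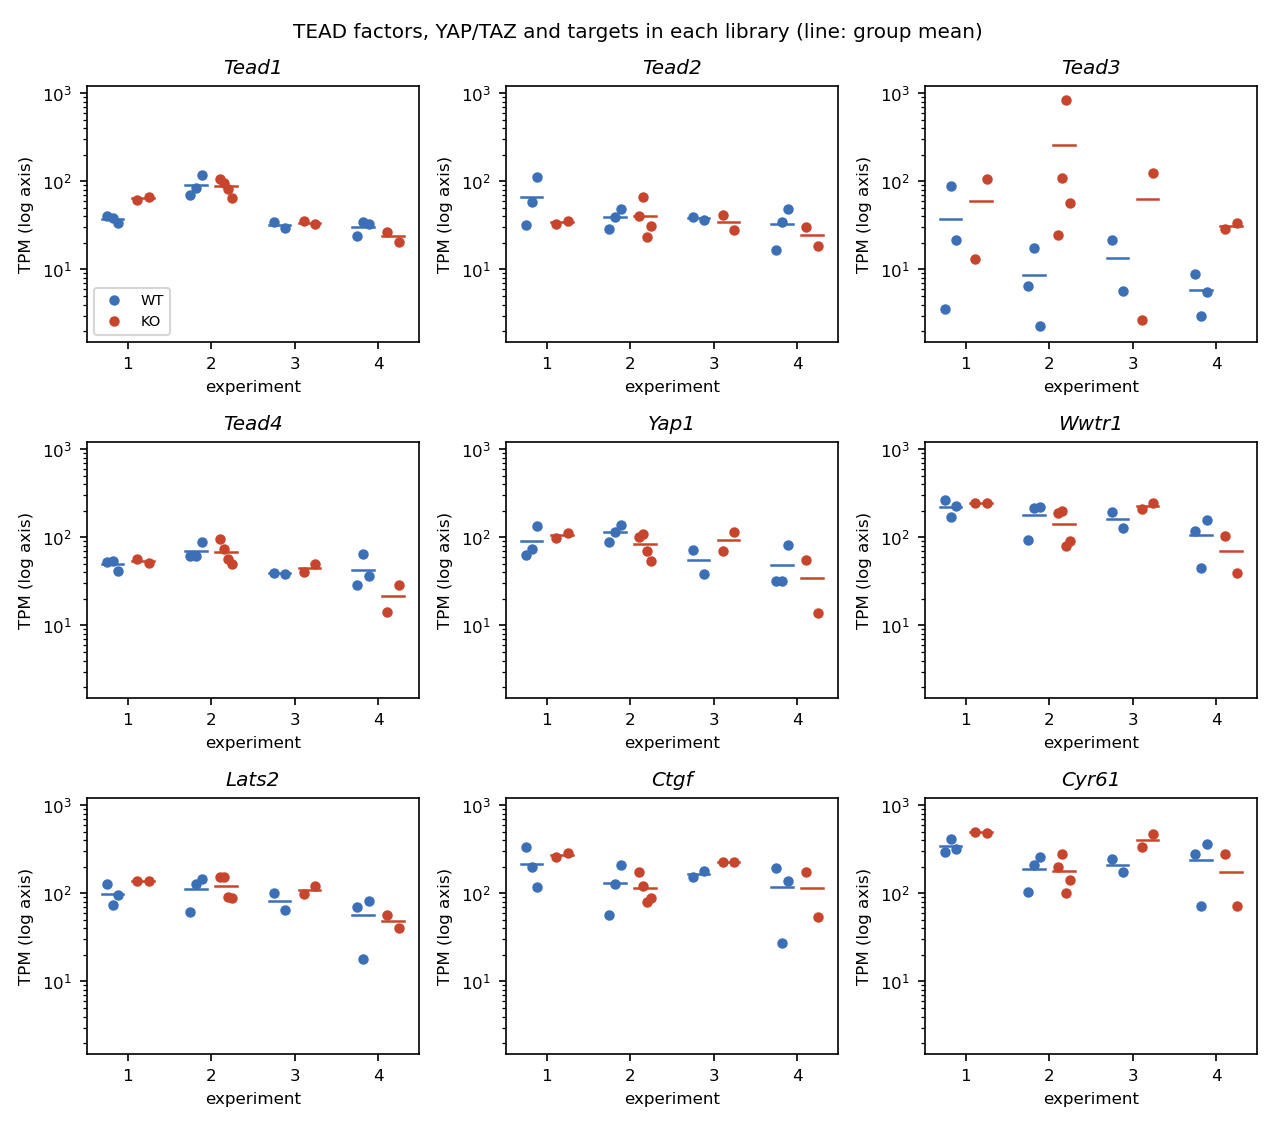
TPM of the 9 genes in each of the 21 libraries (points, log axis) by experiment, WT in blue and KO in red, with lines at the mean of each group. Tead3 spans 2.26 to 843 TPM, while the KO and WT points of the other genes lie at similar heights within most experiments and Tead1 is highest in experiment 2.

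The levels of Tead3 moved with the number of genes detected. Under 15000 genes above 0 TPM were found in 7 KO and 3 WT libraries, in which Tead3 ran from 28.9 to 843 TPM in KO and stood at 87.3, 21.5 and 8.94 TPM in WT. In the other 11 libraries it stood at 24.4, 13.3 and 2.70 TPM in the 3 from KO and ran from 2.26 to 21.3 TPM in those from WT. The 7 KO libraries with few genes thus held more Tead3 than the other 3, whereas in WT only replicate 2 of experiment 1, with 12550 genes, lay clearly above the WT libraries with more genes. Centred within experiment and genotype over the 21 libraries, log2(TPM + 1) of Tead3 fell as the number of genes rose (Pearson r = -0.78, Spearman rho = -0.81). The permutation p adjusted over 27 relations between the 9 genes and 3 library measures was 0.0214 for r and 0.0135 for rho, from unadjusted values of 0.00714 and 0.00300. These measures were chosen after the values of Tead3 had been seen. The adjustment does not cover that choice, so the p-values are a description and no test.

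Without the 2 libraries farthest from the median r was -0.71, within WT it was -0.75 and within KO -0.83. In experiment 2, the only one with more than 5 libraries, it was -0.55 (n = 7), and in experiments 1, 3 and 4, with 4 or 5 libraries each and too few for a correlation, the values were -0.94, -0.95 and -0.98. With the number of genes as a covariate, an alternative added after the data were seen, the KO minus WT difference of Tead3 was 0.83 on the log2 scale (SE 0.51), against 2.20 without it. Without the 4 libraries with fewer than 13000 genes it was 1.97. The number of genes detected also differed by genotype, with means of 17134 ± 2748 (SD, n = 11) in WT and 14982 ± 2527 (SD, n = 10) in KO. The part of library complexity in the difference was not tested beyond these values.

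The genes most like Tead3 across the 21 libraries, after genes averaging under 2 on the log2 scale were set aside and values were centred within experiment and genotype, were Gm12896 (Pearson r = 0.92), Myt1 (0.90), Gm9988 (0.88), Ypel3 (0.86) and Rn18s-rs5 (0.84). Their KO minus WT differences were, in this order, 1.63, 1.40, 1.43, 0.40 and 1.88 on the log2 scale. Gm12896 ran from 88.4 to 57332 TPM. Myt1 encodes a zinc finger transcription factor known from neural cells, and Rn18s-rs5 is an 18S ribosomal RNA related sequence. The libraries had been depleted of ribosomal RNA. Rn18s-rs5 ran from 15.7 to 1122 TPM, with a median of 29.9 in WT and 237 in KO. It was highest in WT replicate 2 of experiment 1 (1122 TPM) and KO replicate 3a (1107 TPM), the latter also the library highest in Tead3. No p is given for these likenesses, since the genes were found by a search over all genes tested.

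**Figure D2:**
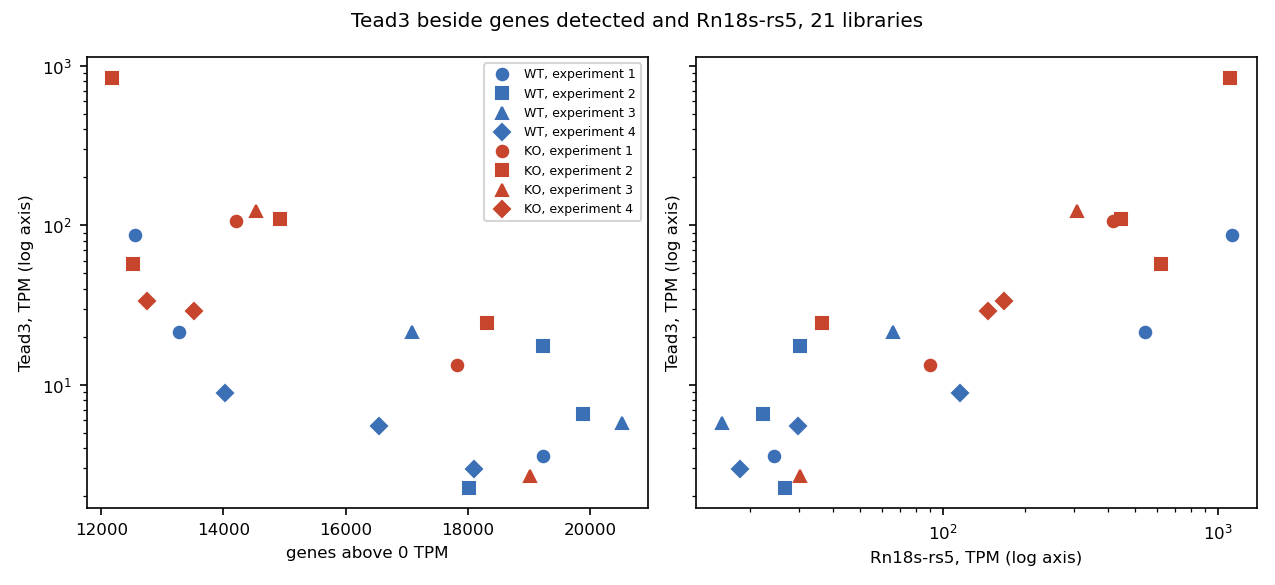
Tead3 (TPM, log axis) against the number of genes above 0 TPM (left) and against Rn18s-rs5 (TPM, log axis, right), 1 point per library, with colour for genotype and shape for experiment. The KO libraries with under 15000 genes hold 28.9 to 843 TPM of Tead3, and the WT libraries under that limit hold 87.3, 21.5 and 8.94 TPM.

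Markers of other cell types that were tested had lower log2 averages in KO, beside the higher Tead3. All 8 pan-leukocyte genes, all 8 macrophage genes, the 5 fibroblast genes and the 6 pericyte and smooth muscle genes tested had a difference below 0, as did the 1 epithelial gene tested, and none passed the limma test at an adjusted p under 0.05. At an unadjusted p under 0.05 the numbers were 5, 6, 2, 3 and 0. Over all 13503 genes tested 794 had such a p, 666 of them lower in KO, and 36.01% had a difference above 0. Summed TPM of the macrophage genes ran from 41.2 to 4791 in WT and from 18.9 to 176 in KO, and that of the leukocyte genes from 105 to 1552 and from 82.4 to 225. The fibroblast sum ran from 28.9 to 582 in WT and from 10.2 to 153 in KO, the pericyte sum from 27.4 to 198 and from 4.51 to 138, and the epithelial sum from 1.58 to 272 and from 0 to 140. Tyrobp was listed at 0 in 11 libraries, Epcam in 14 and Ptprc in 1. The epithelial gene tested was Krt8, and the others on that list were below the filter. Their mean TPM was higher in KO for Epcam (0.25 in WT, 1.78 in KO), Krt18 (0.37, 2.43), Krt19 (0.82, 2.89) and Krt7 (0.13, 0.34). It was lower in KO for Cdh1 (2.05, 0.54), and each of these means was below its SD. The 12 endothelial genes summed to 575 to 11666 TPM in WT and 1670 to 10896 TPM in KO, 11 of them with a difference above 0. The part of other cells in the levels of Tead3 was not tested, and with the mean of the endothelial genes as a covariate the difference of Tead3 was 2.22.

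The promoter of Tead3 is shown because the gene stands apart from the other 3 TEAD genes, and those of Wwtr1 and Cyr61 because their transcript levels correlated over the 21 libraries. Each line gives the 250 bases before the annotated start in RefSeq (GRCm38.p6), 5′ to 3′ on the strand of the gene, with capitals for GGAATG or its complement CATTCC, the core sequence bound by TEAD proteins.
Tead3 (chr17:28350806-28351055, minus strand): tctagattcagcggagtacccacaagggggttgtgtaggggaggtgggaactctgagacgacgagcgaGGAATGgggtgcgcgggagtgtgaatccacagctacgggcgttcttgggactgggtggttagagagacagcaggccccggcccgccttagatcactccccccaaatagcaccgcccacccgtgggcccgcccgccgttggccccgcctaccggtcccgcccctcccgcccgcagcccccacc
Wwtr1 (chr3:57575911-57576160, minus strand): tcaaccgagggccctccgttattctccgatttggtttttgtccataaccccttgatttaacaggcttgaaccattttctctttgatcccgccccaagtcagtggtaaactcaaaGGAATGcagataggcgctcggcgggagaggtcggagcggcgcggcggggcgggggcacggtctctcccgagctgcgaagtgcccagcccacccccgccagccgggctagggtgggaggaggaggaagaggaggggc
Cyr61 (chr3:145649986-145650235, minus strand): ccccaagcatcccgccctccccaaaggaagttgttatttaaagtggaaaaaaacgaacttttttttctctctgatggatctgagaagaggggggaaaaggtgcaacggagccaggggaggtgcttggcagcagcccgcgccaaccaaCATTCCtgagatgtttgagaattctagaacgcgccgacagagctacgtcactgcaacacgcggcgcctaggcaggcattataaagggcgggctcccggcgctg
The sequence was searched on both strands, where the motif cannot overlap its own complement, and its first base lies at -182 from the start in Tead3, at -136 in Wwtr1 and, as the complement, at -103 in Cyr61. The 6 members in the RefSeq table, Tead2, Tead3, Yap1, Wwtr1, Lats2 and Cyr61, have 10 windows in all, of which 6 hold the motif, beside 12.6% of all 32851 windows of this length in RefSeq. Windows of one gene can overlap and share a match, as those of Wwtr1 do. By gene, 4 of the 6 members hold the motif. Tead3 has 3 windows, of which the first, shown here, holds 1 match, the second 2 and the third none, and Tead2 and Lats2 have no match. Lats2 is not shown, although its r with Wwtr1 was 0.92, above the 0.91 of Cyr61 with Wwtr1. The promoters shown therefore do not tell whether correlated genes hold the motif more often. Tead1, Tead4 and Ctgf have no entry.

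Tead3 lies on chr17:28331671-28350817 on the minus strand (ENSMUSG00000002249, GRCm38) and Cyr61 on chr3:145646976-145649981 on the minus strand (ENSMUSG00000028195), and no other annotated gene overlaps either. The other 7 members overlap at least 1 other gene. Tead2 (chr7:45215753-45233644, plus strand) overlaps the leukocyte gene Cd37 on the opposite strand, which ran from 0 to 16.95 TPM. Ctgf (chr10:24595442-24598683, plus strand) overlaps Gm15270 on the opposite strand (0 to 11.3 TPM). The library kit keeps strand, but whether the counting used it is not given in the sources used here, so reads of such pairs may not be separated. Tead1 also overlaps Gm44462 (0 TPM in every library) and Lats2 overlaps Gm49361, each on the same strand, where strand does not separate reads.

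The other TEAD genes were expressed in every library, within narrower ranges. Tead1 had a median of 34.3 TPM in WT (23.7 to 119) and 63.3 TPM in KO (20.5 to 106.5), and its KO minus WT difference was 0.11 (SE 0.18). Tead2 had medians of 39.5 TPM in WT (16.6 to 110.4) and 32.0 TPM in KO (18.3 to 67.0), with a difference of -0.30 (SE 0.25). Tead4 had medians of 52.5 TPM in WT (28.3 to 88.3) and 50.3 TPM in KO (14.2 to 94.9), with a difference of -0.17 (SE 0.21). In all 3 genes the genotypes overlapped over most of their range. By experiment the differences of the log2 averages of Tead4 were 0.13, -0.05, 0.20 and -0.95, without overlap of KO and WT in experiment 3 alone. The differences of the log2 averages of Tead2 were -0.78, -0.02, -0.14 and -0.35 in experiments 1 to 4, with overlapping values in each. In experiment 2 the TPM averages of Tead2 ran the other way, at 38.8 TPM in WT and 40.5 TPM in KO.

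Tead1 was the steadiest member once experiment and genotype were set apart. Its residual SD was 0.32 on the log2 scale, and 0.911% of the genes tested had a smaller one. In experiment 2 it stood at 69.4, 84.2 and 119 TPM in WT and at 106.5, 94.98, 82.3 and 64.9 TPM in KO. In experiment 1 the WT libraries held 39.8, 37.8 and 34.0 TPM and the KO libraries 61.8 and 66.4 TPM. All libraries of experiment 2 lay above all WT libraries of the other experiments, and experiment 1 was the only one in which the KO and WT values of Tead1 did not overlap. Experiment 3 held 34.2 and 29.2 TPM in WT and 35.0 and 32.8 TPM in KO, and experiment 4 held 23.7, 34.3 and 32.3 TPM in WT and 26.8 and 20.5 TPM in KO.

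As shares of the summed TPM of the 4 TEAD genes, Tead4 made up 33.0% ± 7.81 in WT, Tead1 29.8% ± 9.93, Tead2 27.9% ± 10.7 and Tead3 9.34% ± 10.2 (SD, n = 11). In KO the shares were 23.9% ± 9.61 for Tead4, 26.1% ± 9.85 for Tead1, 18.1% ± 9.07 for Tead2 and 31.9% ± 24.1 for Tead3 (SD, n = 10). The share of Tead3 thus lay 22.6 percentage points higher in KO, and 16.6 points higher without KO replicates 3a and 3b. It ran from 0.877% to 36.7% in WT and from 2.26% to 83.9% in KO, the highest being KO replicate 3a. The summed TEAD level had a median of 135 TPM in WT (77.5 to 258) and 219 TPM in KO (100.02 to 1006).

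**Figure D3:**
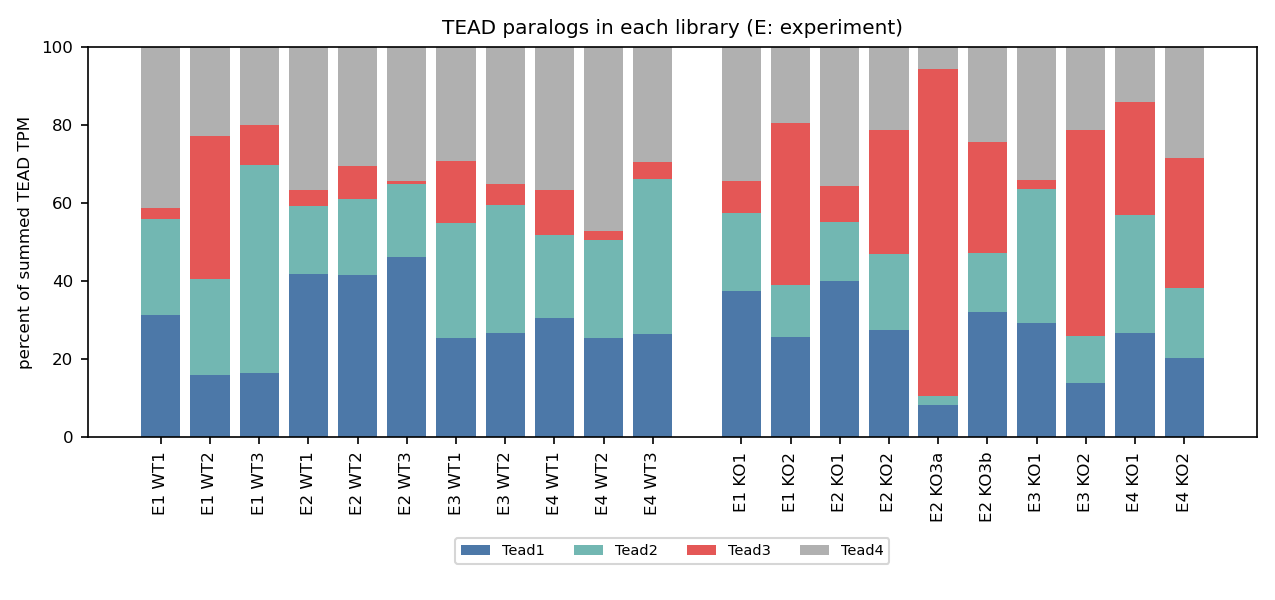
Percent of the summed TEAD TPM taken by Tead1, Tead2, Tead3 and Tead4 in each library, 11 WT on the left and 10 KO on the right, labelled by experiment (E) and replicate. Tead3 (red) takes 0.877% to 36.7% in WT and 2.26% to 83.9% in KO.

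The coactivators were the next group. Yap1 had a median of 72.8 TPM in WT (31.7 to 137.7) and 84.8 TPM in KO (13.7 to 113.8), and Wwtr1 had a median of 168.7 TPM in WT (44.7 to 263) and 194.9 TPM in KO (39.3 to 247). The KO minus WT difference was -0.09 for Yap1 (SE 0.27, 95% interval -0.66 to 0.48) and -0.10 for Wwtr1 (SE 0.27, 95% interval -0.66 to 0.46). No KO library lay above the highest WT library in either gene. By experiment the differences of the log2 averages had mixed signs, at 0.31, -0.48, 0.76 and -0.64 for Yap1 and 0.17, -0.34, 0.52 and -0.56 for Wwtr1. In experiment 3 alone the KO libraries lay above the WT libraries without overlap, in Wwtr1. The TPM of Wwtr1 was 2.34 ± 1.01 times that of Yap1 in WT (SD, n = 11) and 2.10 ± 0.552 times in KO (SD, n = 10).

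Lats2, the kinase gene that is also a target of YAP and TAZ, had a median of 82.6 TPM in WT (17.8 to 145.6) and 109 TPM in KO (40.7 to 152), and 8 of 10 KO libraries lay above the WT median. Its difference was 0.27 (SE 0.25, 95% interval -0.25 to 0.78), and the differences of the log2 averages were 0.51, 0.17, 0.43 and 0.02 in experiments 1 to 4. The KO libraries lay above the WT libraries without overlap in experiment 1 alone. In experiment 4 the TPM averages ran the other way, at 57.0 TPM in WT and 48.8 TPM in KO.

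Ctgf, a matricellular protein of the CCN family, had a median of 151 TPM in WT (27.0 to 334) and 173 TPM in KO (54.3 to 289), with a difference of 0.21 (SE 0.32, 95% interval -0.45 to 0.87). Its family member Cyr61 had a median of 255 TPM in WT (70.8 to 406) and 280 TPM in KO (72.3 to 491), with a difference of 0.18 (SE 0.31, 95% interval -0.45 to 0.81). In experiment 3 both KO libraries lay above both WT libraries in Ctgf and in Cyr61, and in experiment 1 this held for Cyr61 alone. In experiments 2 and 4 the values of KO and WT overlapped in both genes. For these 2 targets the intervals hold both 0 and differences of over 0.8 on the log2 scale, so the data leave changes of that size possible.

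**Figure D4:**
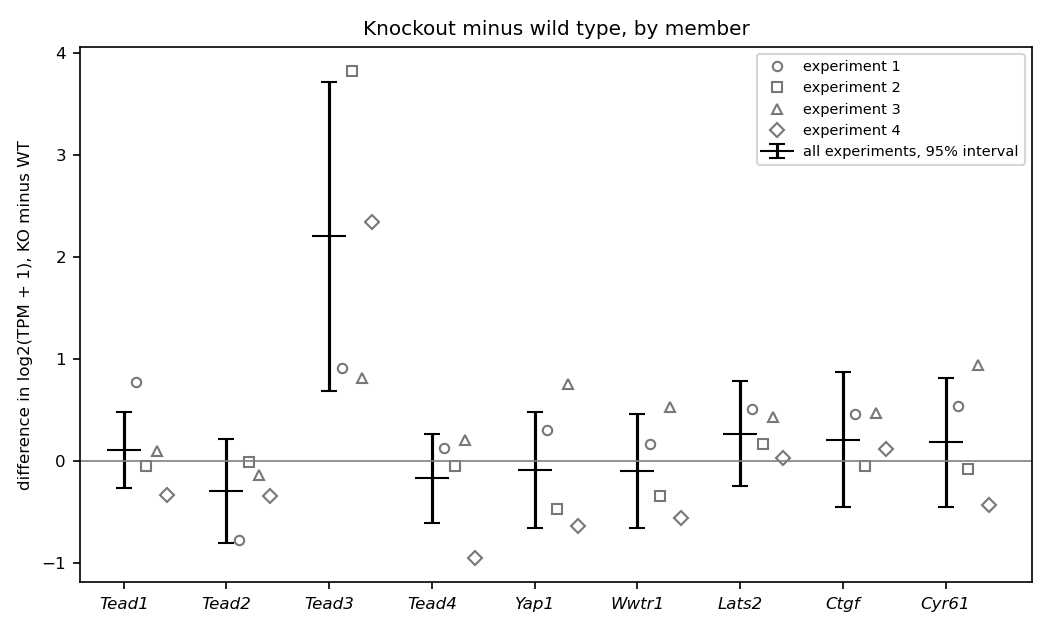
KO minus WT difference in log2(TPM + 1) for each gene, with the 95% interval of the fit over all experiments (black) and the difference of the averages in each experiment (grey symbols). The difference of Tead3, the gene the set was chosen by, is 2.20, and those of the other 8 genes run from -0.30 to 0.27.

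Of the 9 members 5 had a difference above 0, with a median of 0.11, beside 36.01% of all 13503 genes tested and a median of -0.11. Tead3, chosen for its rise, is among these 5 and enters the median, so the comparison is a description only. Of the other members, Tead1, Lats2, Ctgf and Cyr61 lay above 0, and Tead2, Tead4, Yap1 and Wwtr1 lay below. With libraries shifted to a common median, the median over all genes moved to -0.01, and the genes at an unadjusted p under 0.05 went from 128 higher and 666 lower to 521 higher and 474 lower. Over 40 alternatives the sign was kept in each one for Tead2, Tead3, Lats2 and Ctgf, in 39 for Tead1, Tead4 and Cyr61, in 32 for Wwtr1 and in 29 for Yap1. The alternatives share libraries, and Tead3 was chosen for its rise in each experiment, so its kept sign was in large part set in advance. In the same fit 1 of 13503 genes, or 0.00741%, passed at an adjusted p under 0.05 (limma, Benjamini-Hochberg), and it was the histone gene Hist1h4m, lower in KO.

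The rest of the pathway was described from 2 lists. Of 28 Hippo pathway regulators 24 were tested, 11 with a difference above 0 and 13 below (median -0.05), and 0 passed at an adjusted p under 0.05 in limma or at an unadjusted p under 0.05. Map4k4, a kinase upstream of Lats1 and Lats2, was the most abundant, with 420 ± 219 TPM over the WT libraries (SD, n = 11), 502 ± 238 TPM over the KO libraries (SD, n = 10) and a difference of 0.00 (SE 0.26). The kinase gene Taok2 stood at 158 ± 98.1 TPM and 228 ± 118 TPM (difference 0.34, SE 0.29), and Rassf1 at 112 ± 49.3 TPM and 125 ± 41.4 TPM (0.13, SE 0.23). These 3 were thus well expressed and within their spread between genotypes.

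The other regulators with the smallest p in each direction did not pass either, though Frmd6 and Mob1a lay further from 0 than their SE. Amot (0.34, SE 0.38) and Amotl1 (0.17, SE 0.21), whose motin proteins bind YAP, were higher on average in KO, and the FERM domain gene Frmd6 (-0.54, SE 0.32), the Lats cofactor Mob1a (-0.29, SE 0.24) and the kinase Lats1 (-0.17, SE 0.25) were lower on average. Their adjusted p-values in limma ran from 0.834 to 0.941. The TEAD cofactor genes Vgll1 and Vgll2 were listed at 0 in all 21 libraries.

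Of 20 further YAP/TAZ target genes 18 were tested, 9 with a difference above 0 and 9 below (median -0.03), and 0 passed in limma at an adjusted or an unadjusted p under 0.05. Igfbp3, which encodes an IGF-binding protein, was the most abundant, with 3180 ± 2001 TPM over the WT libraries (SD, n = 11), 3417 ± 1621 TPM over the KO libraries (SD, n = 10) and a difference of 0.22 (SE 0.37). Crim1 (153 ± 61.3 and 167 ± 67.5 TPM, difference 0.13, SE 0.33) and Myof (102 ± 25.2 and 111 ± 49.5 TPM, difference -0.07, SE 0.24) followed. The receptor tyrosine kinase gene Axl (-1.39, SE 0.72), Fjx1 (-0.91, SE 0.45) and Arhgef17 (-0.76, SE 0.41) had the smallest p of those lower on average, each with an adjusted p of 0.820 in limma. Amotl2 (0.25, SE 0.23), Rbms3 (0.27, SE 0.45) and Igfbp3 had the smallest p of those higher on average. Ankrd1, a common reporter of YAP activity in other cells, was listed at 0 in 12 libraries and was below the filter.

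The choice of genes did not use differences between experiments, so these were tested. Among all genes tested 3931, or 29.1%, differed between experiments at an adjusted p under 0.05 (limma F test, genotype in the fit), and of the 9 members 5 did. Tead1 had an adjusted p of 4.65e-04 in this limma test, with averages over its libraries of 48.0, 88.8, 32.8 and 27.5 TPM in experiments 1 to 4. Tead1 passed in each alternative in which this test was run except the one that left out experiment 2 (limma adjusted p 0.177), including all 3 that rescaled the libraries. Tead4 (0.0239), Wwtr1 (0.0278), Yap1 (0.0298) and Lats2 (0.0329) passed as well in the limma fit, with averages lowest in experiment 4 in each of them. Wwtr1, for example, averaged 229, 156, 194 and 92.1 TPM, and Lats2 114, 117, 95.5 and 53.7 TPM.

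In contrast to Tead1, none of these 4 passed once libraries were rescaled in any of the 3 ways. Experiment 4 also held the library with the fewest endothelial transcripts, WT replicate 2, with 95.04 TPM of Pecam1, and KO replicate 2, with 242 TPM. Without the 3 libraries lowest in Pecam1 the members that passed were 2, Tead1 and Tead4. The number was 2 when KO replicate 2 or WT replicate 2 of experiment 4, or WT replicate 3 of experiment 2, was left out, and 3 when KO replicate 1 of experiment 4 was. The adjusted p was 0.0636 for Cyr61, 0.0756 for Ctgf, 0.299 for Tead2 and 0.619 for Tead3 (limma). For Tead3 the averages of log2(TPM + 1) were 4.75, 5.12, 4.02 and 3.60 in experiments 1 to 4, beside a residual SD of 1.84.

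In WT the order of the median levels was Cyr61, Wwtr1, Ctgf, Lats2, Yap1, Tead4, Tead2, Tead1 and Tead3. Neighbours were compared within each of the 11 WT libraries by an exact two-sided sign-flip permutation test over 2048 arrangements, adjusted over 8 pairs. Cyr61 lay above Wwtr1 in 10 of 11 libraries, by 0.56 ± 0.47 on the log2 scale (SD, n = 11, exact adjusted p = 0.0104). Ctgf lay above Lats2 in 10 of 11, by 0.75 ± 0.58 (exact adjusted p = 0.0104). These steps were larger than their spread between libraries. Tead1 lay above Tead3 in 10 of 11 libraries, by 2.08 ± 1.70 (SD, n = 11). No p is given for that step, although the pair was among the 8 adjusted over, because the WT values of Tead3 entered the choice of the genes.

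The other 5 neighbours were not told apart. The exact adjusted p was 0.397 for Wwtr1 and Ctgf, 0.475 for Lats2 and Yap1, 0.0742 for Yap1 and Tead4, 0.378 for Tead4 and Tead2, and 0.718 for Tead2 and Tead1. Tead2 lay above Tead1 in 5 of 11 libraries. Without experiment 1 or without experiment 4, each leaving 8 WT libraries, no step had an exact adjusted p under 0.05. Without experiment 2, which also leaves 8, 2 steps did, with the step to Tead3 among those compared.

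Over the 21 libraries together, centred within experiment and genotype, Wwtr1, Lats2, Ctgf and Cyr61 correlated with each other. Among 36 pairs of members 5 had an adjusted permutation p under 0.05 over the 21 libraries, all of them among the 6 pairs of these 4 genes, whose Pearson r ran from 0.82 to 0.92. Wwtr1 and Lats2 had r = 0.92 and rho = 0.91 (permutation p adjusted 0.00468 and 0.00252), and Wwtr1 and Cyr61 had r = 0.91 and rho = 0.86 (adjusted 0.0283 and 0.0380). Without the 2 libraries farthest from the median the 6 values of r ran from 0.72 to 0.90. The 6 values ran from 0.82 to 0.98 within WT, from 0.79 to 0.95 within KO and from 0.83 to 0.97 within experiment 2 (n = 7). The other experiments hold 4 or 5 libraries each, too few for a correlation, and their signs were mixed. All 6 values were above 0 in experiment 4, but in experiment 1 those of Cyr61 with Wwtr1, Lats2 and Ctgf were -0.99, -0.95 and -0.23. In experiment 3 those of Ctgf with Wwtr1, Lats2 and Cyr61 were -0.95, -0.93 and -0.76. Wwtr1 and Lats2 were the only pair of the 6 with r above 0.9 in each experiment. The sixth pair, Ctgf and Cyr61, had r = 0.82 and an adjusted permutation p of 0.0540.

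Over all libraries these 4 genes also moved with the endothelial content. The mean log2 level of the 12 endothelial markers correlated with Wwtr1 (r = 0.90, rho = 0.91), Lats2 (0.93 and 0.90), Ctgf (0.89 and 0.82) and Cyr61 (0.90 and 0.85), with permutation p adjusted over 27 relations from 0.00911 to 0.0164 for r. The percent of TPM in the 20 highest genes, which ran from 19.7% to 71.1%, went the other way, with r of -0.88, -0.72, -0.78 and -0.79. These measures too were chosen after values had been seen, and the p-values do not cover that choice. Without the 2 farthest libraries the r with the endothelial mean was 0.94, 0.88, 0.80 and 0.88. Within experiment 2 (n = 7) it was 0.97, 1.00, 0.94 and 0.93, but Cyr61 had -0.92 in experiment 1, with 5 libraries, and Ctgf had -0.97 in experiment 3, with 4. The r with the percent of TPM in the 20 highest genes was likewise above 0 for Cyr61 in experiments 1 and 3 and for Wwtr1 and Lats2 in experiment 3. The part of the cell mixture in their correlation was not tested beyond these values.

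The number of passing pairs rested on single libraries and on scaling. It was 1 with a common median, 1 with quantile normalization and 0 with TPM rescaled after removal of mitochondrial and the 20 highest genes. It was 0 without the 3 libraries lowest in Pecam1 and 1 without KO replicates 3a and 3b. Leaving out 1 library gave 1 to 10 pairs, with 1 when any KO library of experiment 2, WT replicate 1 of experiment 2 or WT replicate 3 of experiment 4 was left out, and 2 when WT replicate 2 or 3 of experiment 2 was. In experiment 4, removal of either KO library gave 3 pairs, that of WT replicate 2 gave 8 and that of WT replicate 1 gave 10.

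Tead3 stood outside this pattern. Its r with the other 8 members ran from -0.24 to 0.14, with a lowest adjusted permutation p of 0.579. Tead2 and Yap1 had r = 0.68 and Yap1 and Wwtr1 r = 0.73, each with an adjusted permutation p of 0.0540. Tead3 had r = -0.03 with the endothelial mean, and Wwtr1, Lats2, Ctgf and Cyr61 had r from -0.15 to 0.11 with the number of genes detected, the measure that Tead3 moved with. The genes most like the mean of Ctgf and Cyr61 were Exoc3l, Gimap4, Piezo2, Osbpl10 and Vegfc, each with r = 0.98 over the 21 libraries. Piezo2 encodes a mechanically gated ion channel and Vegfc a ligand of the VEGF receptor family.

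**Figure D5:**
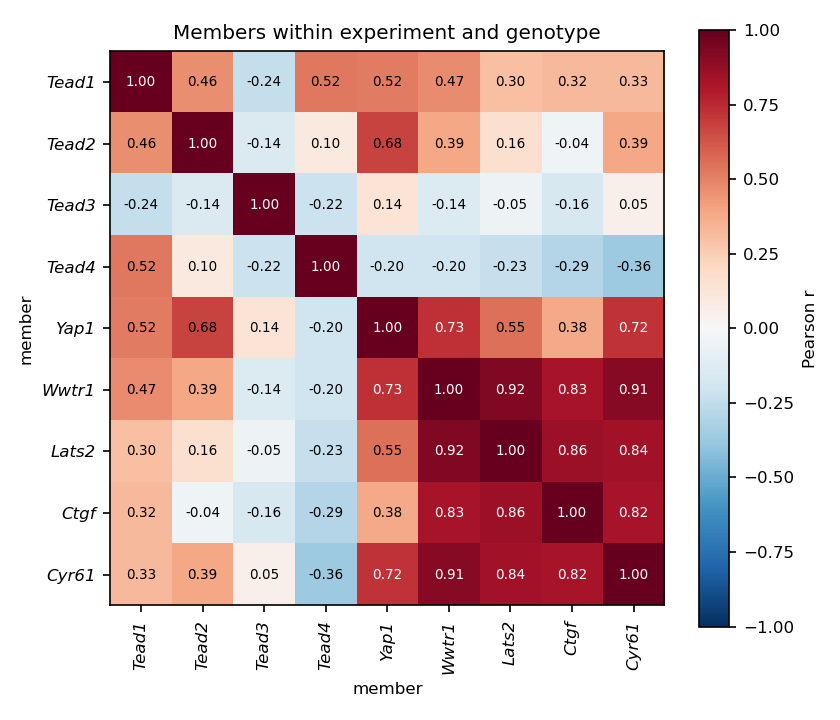
Pearson r between members over 21 libraries, from log2(TPM + 1) centred within experiment and genotype. Wwtr1, Lats2, Ctgf and Cyr61 have r from 0.82 to 0.92 with each other, and Tead3 has r from -0.24 to 0.14 with every other member.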

How the data were processed

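The authors deposited one table of TPM per Ensembl gene, with decimal commas, for the 21 libraries. Per the labels' protocols, libraries were made from 30 ng total RNA with a stranded kit and ribosomal depletion and read in pairs of 150 bases. The submitters' processing notes name GRCm38 as the build. The aligner and the counter are not given in the sources used. Columns were assigned by header, and 27 symbols stored as dates are no members. The 13503 genes reaching 1 TPM in 10 libraries or more were tested on log2(TPM + 1) with limma 3.58.1 (statmod 1.5.0, R 4.3.3), with trended, robust variance, experiment and genotype as terms and Benjamini-Hochberg adjustment, and the fit was tested on simulated data. Correlations were permuted within experiment and genotype (100000 resamples). Members and lists were chosen with earlier results of these data known. Named genes are the members, per list the 3 most abundant and the 3 with the smallest p per direction, and the 5 most alike for each of 2 patterns; Cd37, Gm15270, Vgll1, Vgll2, Ankrd1 and Hist1h4m were chosen after their values were seen. Deviations of same-numbered KO and WT libraries correlated at -0.20 to 0.36 (10 pairs, median -0.04) and others at -0.36 to 0.22 (18 pairs). Centring within groups of 2 to 4 libraries ties these values to each other, and experiment 3 held only 0.20 and -0.20. They therefore cannot decide whether replicate numbers pair samples, and the reported fit has no pairing term. Alternatives covered the pseudocount, filters, scalings, variance prior, pairing, column placement and libraries or experiments left out.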

Additional observations from a re-analysis of the deposited data

Results flagged for a closer look

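In 3 of 18 groups of 4 to 10 libraries that were looked at, 1 library lay far from the others by Dixon's criterion. For normally distributed values it flags about 1 in 20 groups by chance. The gaps were taken in TPM and not on the log2 scale, so that rate need not hold here. The 11 WT libraries as a group lay outside this size range, so the flags do not set KO apart from WT. In WT, Tead3 stood at 87.3 TPM in replicate 2 of experiment 1, and the next value was 21.5 TPM. The groups are not independent, since 2 of the 3 flagged hold the same value. Tead3 in KO is also a value by which the genes were chosen, so the number is not read against chance. In the 10 KO libraries, Tead3 in KO replicate 3a of experiment 2 stood at 843.18 TPM, and its gap to the next library took 0.856 of the whole range. Within the 4 KO libraries of experiment 2 the same value took a gap of 0.896 of the range. Tead2 in KO replicate 2 of experiment 2 stood at 66.97 TPM, with a gap of 0.532 of the range over the 10 KO libraries, below the highest WT value of 110.4 TPM.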

How the results depend on the processing

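Over 40 alternatives the Tead3 difference stayed above 0 (0.83 to 2.65), as did the difference in its share of the TEAD sum over 30 (16.6 to 27.2 percentage points). Both use the values by which the genes were chosen, so the kept sign is a description only. The other counts moved, and the cause was not tested. Genes called between KO and WT, 1 in the reported fit, were 0 with the stricter filter, 0 without experiment 1 or experiment 2 and 2 with a common median or quantile normalization. In the paired fit with a replicate block, 0 were called and the Tead3 difference was 2.22. Members with a difference above 0 were 8 instead of 5 without experiment 4. Genes differing between experiments, 3931 as reported, were 2529 without a filter, 2496 with a common median, 4 without experiment 2, 1715 without experiment 4, 1847 without the 3 libraries lowest in Pecam1, 2339 with KO replicate 3a placed in experiment 4, and 2335 to 5015 with 1 library left out (2590 without WT replicate 3 of experiment 2). Members among them, 5 as reported, were 2 without a filter. They were 7 with the stricter filter (1 TPM in every library), where Ctgf and Cyr61 passed too. They were 1 under each of the 3 scalings and 0 without experiment 2. They were 2 without experiment 4, without the low-Pecam1 libraries or with KO replicate 3a placed in experiment 4. They were 3 without libraries under 13000 genes or with the endothelial mean as covariate, both added after the data were seen. With 1 library left out they were 2 to 6. Steps in the WT order with an adjusted p under 0.05 were 3 with the step to Tead3 counted. They were 0 without experiment 1 or experiment 4, 2 without experiment 2 and 3 to 4 with 1 library left out. Correlated pairs, 5 as reported, were 1 with a common median or quantile normalization, 0 with rescaled TPM, 3 without experiment 1, 0 without experiment 2 or experiment 4, 0 without the low-Pecam1 libraries, 1 without KO replicates 3a and 3b, 0 without libraries under 13000 genes and 1 to 10 with 1 library left out. Depth is unknown, so no counting error could be set beside low values such as those of Tead3 in WT.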
